A study of Mus musculus with 7 samples.

Results

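The genes described here are 38 type I interferon-stimulated genes, taken by symbol from a list of textbook targets of the type I interferon response. A member had to reach a mean normalized count of 10 over the 7 libraries, and all 38 did, among 12963 of 16476 genes that reached it. The lowest member, Mx2, had a mean of 89.2. RNA came from cells washed out of the lungs (bronchoalveolar lavage, BAL) of C57BL/6 mice. They were collected 3 days after the trachea had received lipopolysaccharide, part of the outer wall of Gram-negative bacteria. In both groups neutrophils were removed from the lavage with antibodies before RNA extraction, and both are labelled as carrying LysM Cre, a Cre recombinase inserted into the lysozyme M gene Lyz2 and expressed in myeloid cells. The control group (LysM Cre) comprised 4 libraries and the knockout group (Netrin1loxp/loxp LysM Cre), which also had loxP-flanked alleles of the netrin-1 gene Ntn1, comprised 3. The comparison asks how airspace cells differ when Cre-expressing myeloid cells are set to lose Ntn1. No group without lipopolysaccharide was analysed here, so the levels are those of a challenged lung. The sources used here give neither age nor sex of the mice.

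Type I interferons are released when cells sense viral or bacterial material, and lipopolysaccharide starts their production through the receptor TLR4. They bind a receptor made of IFNAR1 and IFNAR2, whose kinases JAK1 and TYK2 activate transcription factors of the STAT family. With IRF9 these form a complex that binds a DNA element, the interferon-stimulated response element, in front of genes whose products sense foreign RNA and DNA, degrade it, block viral entry or dampen the response. Lung macrophages and neutrophils both express such genes, and many of them also respond to interferon gamma, a product of natural killer and T cells.

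The depth lay between 9903284 and 13353733 reads per library, so that 3 reads, the limit that a count of 0 allows, correspond to 2.65 to 3.76 normalized counts. Ntn1 was hardly detected, with a control mean of 4.16 ± 2.86 normalized counts (SD, n = 4) and a knockout mean of 0.639 ± 0.556 (SD, n = 3; 2-sided exact permutation p = 0.0571, the smallest possible being 0.0286), so the labels could not be checked on it at this depth. Lyz2, the gene of the Cre locus, stood at 76927 and 118781 normalized counts in control replicates 1 and 4 and between 721.3 and 1052 in the other 5 libraries. The controls thus fall into 2 pairs at the locus that carries Cre, although all 4 bear the same genotype label. The labels do not give the number of Cre copies, and whether the controls share 1 Cre genotype was not tested. Results are therefore also given without controls 1 and 4. Alveolar macrophage markers, which define the resident cells of a lavage, were present in all 7 libraries (summed normalized count 73567 to 139077), with 0 of 12 called, and no listed marker of any cell type was at 0 in every library. Neutrophil markers were still present after the depletion, at 17536 to 20758 in controls and 81289, 27050 and 27457 in knockout replicates 1, 2 and 3, with 8 of 15 higher. No label ties a library to a single mouse. The p-values then reflect only the variation among the 7 libraries, some of which may be technical.

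Of the 38 interferon-stimulated genes 7 rose in knockouts and 0 fell at an adjusted p under 0.05 (limma, Benjamini-Hochberg over all genes tested), while 10.4% of all genes were higher, 11.3% lower and 21.7% called in either direction. The 7 were Ifit3b, Isg20, Isg15, Epsti1, Usp18, Ifi35 and Dhx58, and they make up 18.4% of the members. Read against the background, the share called in either direction was no larger than that of all genes, and the share called higher was 18.4% against 10.4%. The log2 fold change was above 0 in 34 of 38 members (89.5%, against 51.9% of all genes), with a median of 0.27 against 0.01 over all genes tested and a range of -0.38 to 1.14. The 4 members below 0 were Mx1, Mx2, Oas1g and Oas2. At an unadjusted p under 0.05 there were 16 members (42.1%, against 36.6% of all genes). Every knockout library was above every control library in 11 members (28.9%, against 17.4% of all genes), and the reverse held in 0 members (16.3% of all genes). These 11 were Ddx58, Dhx58, Eif2ak2, Zbp1, Isg15, Usp18, Rtp4, Isg20, Mndal, Ifi35 and Epsti1. The authors' deposited table called 12 members higher (10.6% of all genes) and 0 lower (11.4%) at an adjusted p under 0.05. The families described below hold 2 to 6 members each, and none was tested as a set. A higher level in these bulk samples can come from more cells that express a gene or from more of its RNA per cell, which cannot be told apart here.

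**Figure D1:**
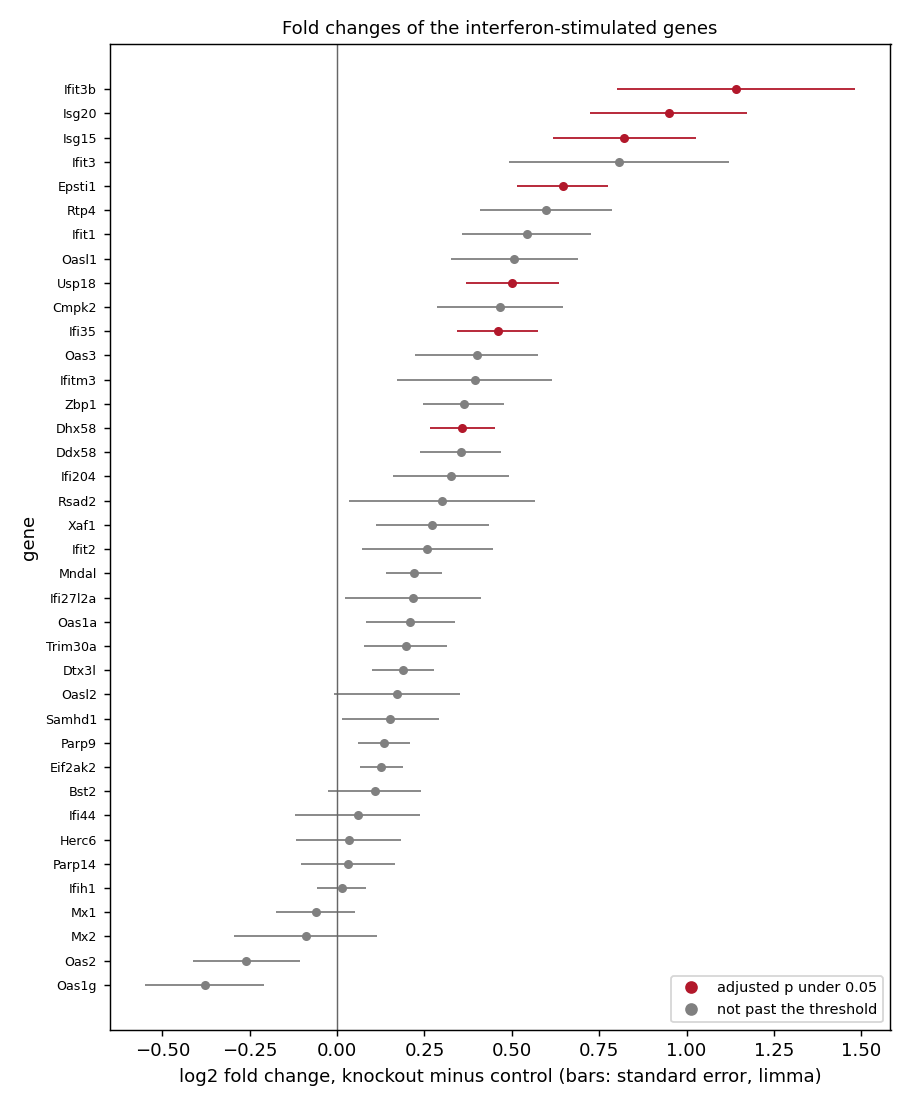
Log2 fold change of each of the 38 genes, knockouts minus controls, with its standard error from limma on log2(normalized count + 1); the 7 genes past the threshold are red. Points run from -0.38 (Oas1g) to 1.14 (Ifit3b), and 34 of 38 lie to the right of 0.

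A sequence like the element through which the interferon complex acts can be read in front of some members. The stretches holding it are shown for the 2 genes that rose and have it, and for 4 genes that have it and were not called. RefSeq promoters of the build GRCm38.p6 were matched for 27 members, and the 250 bases before each start were searched on both strands for GAAA followed, after any 2 bases, by a second GAAA, with overlapping matches counted. It was found in 11 of the 27 (40.7%), against 3.46% of 27025 genes with such a window. Of the 7 members that rose, 5 had a promoter entry and 2 of them (Isg15 and Ifit3b) the motif, while the windows of Isg20, Ifi35 and Epsti1 held none, and of the 31 that were not called, 22 had an entry and 9 the motif (Ifit1, Ifit3, Oas1a, Oas1g, Oas3, Bst2, Rsad2, Mndal and Trim30a). TTCNNNGAA, the core of the gamma interferon-activated site, was in 6 of 27 (22.2%, against 8.13% of the same genes). A match describes letters and is no evidence of binding, and the entries not matched were those of Oas2, Dhx58, Zbp1, Usp18, Mx1, Mx2, Rtp4, Ifi204, Parp9, Parp14 and Ifi27l2a. The windows below are written 5′ to 3′ on the strand of the gene, with matches to this pair of GAAA or its reverse complement in capitals. The Isg15 window (chr4:156200858-156200928, minus strand) covers 110 to 40 bases before the start and holds 3 overlapping matches, and the Ifit3b window (chr19:34607757-34607827, plus strand) lies 200 to 130 bases before the start.
Isg15: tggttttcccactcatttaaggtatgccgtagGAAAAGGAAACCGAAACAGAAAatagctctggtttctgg
Ifit3b: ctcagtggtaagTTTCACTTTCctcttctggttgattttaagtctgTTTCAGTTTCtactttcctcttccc
These are 2 genes that rose. The same element in 4 genes that were not called follows, for Ifit3 (chr19:34583361-34583431, plus strand, 168 to 98 bases before the start), Ifit1 (chr19:34640764-34640834, plus strand, 125 to 55 bases before), Rsad2 (chr12:26456532-26456602, minus strand, 150 to 80 bases before) and Oas1a (chr5:120907526-120907596, minus strand, 71 to 1 bases before).
Ifit3: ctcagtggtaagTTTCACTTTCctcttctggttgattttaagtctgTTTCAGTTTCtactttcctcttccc
Ifit1: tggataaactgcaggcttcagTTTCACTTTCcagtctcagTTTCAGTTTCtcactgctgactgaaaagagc
Rsad2: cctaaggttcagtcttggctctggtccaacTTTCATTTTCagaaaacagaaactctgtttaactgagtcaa
Oas1a: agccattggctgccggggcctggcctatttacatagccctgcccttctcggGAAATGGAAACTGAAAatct
The Ifit3 and Ifit3b windows hold the same letters throughout.

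The IFIT proteins are grouped here as RNA-binding proteins, and their 4 genes lie in a cluster on chromosome 19. Of the 4, 1 rose (10.4% of all genes were higher), and the median log2 fold change of the family was 0.67. Ifit3b (chr19:34607970-34613401, GRCm38) had normalized counts of 274.2, 160.5, 163.7 and 225.7 in control replicates 1 to 4 and of 768.6, 447.1 and 254.7 in knockout replicates 1 to 3. Knockout replicates 1 and 2 lay above every control, and replicate 3 lay between the controls. The control mean was 206.0 ± 54.5 (SD, n = 4) and the knockout mean 490.1 ± 260 (SD, n = 3), and the log2 fold change was 1.14 (SE 0.34, limma adjusted p = 0.0436, 2.21-fold). When each library was left out in turn, Ifit3b was called only without control replicate 1 or knockout replicate 3 (adjusted p from 0.0105 to 0.108), so its call rests on the set of libraries.

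Ifit3, the near copy of Ifit3b, was not called. Its normalized counts were 983.1, 759.3, 704.4 and 990.6 in controls and 2591, 1473 and 861.8 in knockouts (log2 fold change 0.81, SE 0.31, adjusted p = 0.0987). The order of the 3 knockout libraries was the same as for Ifit3b, and replicate 3 again lay within the controls. The coding sequences of the pair are identical at 1201 of 1212 aligned bases (99.1%), so reads can be split between them in ways that the counting decides, and the separate values of both genes are uncertain. Ifit1 had a log2 fold change of 0.54 (adjusted p = 0.0665), with 1583 to 2168 normalized counts in controls and 3714, 2859 and 2080 in knockouts. Ifit2 had one of 0.26 (adjusted p = 0.351).

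The OAS proteins make short oligoadenylates that switch on the RNA-cutting enzyme RNase L. None of their genes was called, 0 of 6 in either direction, and the family held both signs. Oas1g, with 320.9, 302.4, 260.2 and 369.9 normalized counts in controls and 311.3, 221.1 and 197.8 in knockouts, had the lowest fold change of all members (log2 fold change -0.38, SE 0.17, adjusted p = 0.144). Knockout replicates 2 and 3 lay below every control, and replicate 1 lay among them. Without knockout replicate 1, Oas1g (-0.57, adjusted p = 0.0266) and Oas2 (-0.43, adjusted p = 0.0478) were called lower, while with all libraries Oas2 stood at -0.26 (adjusted p = 0.252). Oas1a, whose coding sequence is 96.7% identical to that of Oas1g, had a log2 fold change of 0.21 (adjusted p = 0.268), and reads may be shared between the pair. Oas3 had 0.40 (adjusted p = 0.136), and the OAS-like genes Oasl1 and Oasl2 had 0.51 (adjusted p = 0.0791) and 0.17 (adjusted p = 0.528). Oasl1 was at 742.4 to 911.0 normalized counts in controls and at 1609, 1118 and 869.0 in knockouts, of which the last lay within the controls.

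The sensors of foreign RNA and DNA had a median log2 fold change of 0.35, and 1 of 5 rose (10.4% of all genes). This was Dhx58 (LGP2, a helicase that tunes RNA sensing, chr11:100694884-100704271), at 623.6, 762.3, 725.7 and 665.8 normalized counts in controls and 981.5, 847.1 and 841.0 in knockouts. All 3 knockout libraries lay above the 4 controls, and the log2 fold change was 0.36 (SE 0.09, adjusted p = 0.0264, 1.28-fold). It was called without control replicate 2, control replicate 3 or knockout replicate 3, and not without any one of the other 4 libraries (adjusted p from 0.0327 to 0.0704). For 3 further sensors every knockout lay above every control (17.4% of all genes), although none was called. Ddx58 (RIG-I, which detects RNA with a 5′ triphosphate) had 1588 to 2095 normalized counts in controls and 2236 to 2771 in knockouts (log2 fold change 0.35, adjusted p = 0.0594). Zbp1, a sensor of Z-form nucleic acids that can start cell death, had 3386 to 4314 against 4493 to 5884 (0.36, adjusted p = 0.0546). Eif2ak2 (PKR, a kinase that halts translation on double-stranded RNA) had 1328 to 1424 against 1448 to 1570 (0.13, adjusted p = 0.165), a narrow gap beside the others. Ifih1 (MDA5, a sensor of long double-stranded RNA) had 0.01 (adjusted p = 0.913), and its groups overlapped.

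ISG15 is a small ubiquitin-like protein that is attached to other proteins, HERC6 attaches it in the mouse, and USP18 removes it and also blocks the interferon receptor. Of these 3 members 2 rose, while 10.4% of all genes were higher. Ube2l6, which hands ISG15 on to its ligase, is not a member and was not called (log2 fold change 0.71, limma adjusted p = 0.134). Isg15 (chr4:156199424-156200818) had normalized counts of 1212, 1134, 814.2 and 1228 in controls and of 2625, 1810 and 1474 in knockouts. The groups did not overlap, the lowest library was control replicate 3 and the highest knockout replicate 1. The mean was 1097 ± 193 (SD, n = 4) against 1970.0 ± 592 (SD, n = 3), and the log2 fold change was 0.82 (SE 0.20, adjusted p = 0.0229, 1.77-fold). When 1 library was left out, its call was lost without control replicate 2 or knockout replicate 2 (adjusted p up to 0.0569). Usp18 (chr6:121245906-121270917) had 824.7, 732.9, 606.2 and 780.0 in controls and 1220, 1036 and 879.0 in knockouts, again with no overlap (0.50, SE 0.13, adjusted p = 0.0295, 1.42-fold). Of the single libraries left out, only control replicate 1 and knockout replicate 3 kept Usp18 past the threshold (adjusted p from 0.0194 to 0.0813). Herc6 had a log2 fold change of 0.03 (adjusted p = 0.896), with control replicate 3 the lowest at 1099 normalized counts and the other 6 libraries between 1476 and 1785.

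Among proteins that act on nucleotides or RNA, Isg20, an exonuclease that degrades single-stranded RNA, was the 1 of 4 that rose. Over all genes 10.4% were higher. Isg20 (chr7:78913424-78920396) was at 462.1, 425.6, 406.2 and 413.8 normalized counts in controls and at 1274, 773.0 and 568.2 in knockouts. The controls lay close together, all 3 knockouts lay above them, and knockout replicate 1 was the highest. The mean was 426.9 ± 24.8 (SD, n = 4) against 871.6 ± 363 (SD, n = 3), with a log2 fold change at 0.95 (SE 0.22, adjusted p = 0.0189, 1.93-fold). Among the fits with 1 library left out, the call was lost only without control replicate 4 (adjusted p = 0.0511). Rsad2 (viperin, which makes a nucleotide that stops viral RNA synthesis) had 5238, 4179, 2975 and 4586 in controls and 7676, 5030 and 3477 in knockouts (0.30, SE 0.27, adjusted p = 0.447), so only knockout replicate 1 lay above all controls. Without that library its log2 fold change was 0.01. Cmpk2, a mitochondrial nucleotide kinase, had 0.47 (adjusted p = 0.0965), and Samhd1, which breaks down the building blocks of DNA, had 0.15 (adjusted p = 0.461).

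The antiviral GTPases and membrane proteins had a median log2 fold change of 0.11, and 0 of 5 were called. Mx1 is a GTPase that traps viral particles and is known to be truncated in C57BL/6 mice. Its normalized counts were 491.6, 675.2, 642.5 and 650.8 in controls and 617.5, 567.3 and 571.8 in knockouts (log2 fold change -0.06, adjusted p = 0.73), and all knockouts lay within the controls. Mx2 had -0.09 (adjusted p = 0.783). Bst2 (tetherin, which holds budding virus at the cell surface) had 0.11 (adjusted p = 0.597). Ifitm3, which blocks the fusion of virus with the cell, had 2633, 2530, 2410 and 2968 in controls and 5450, 2776 and 2717 in knockouts (0.39, adjusted p = 0.233). Knockout replicate 1 stood alone there, and without it the log2 fold change was 0.06. Rtp4, a receptor transporter protein, did not overlap between groups, at 1188 to 1559 normalized counts in controls and 2938, 1926 and 1575 in knockouts, and lay just outside the threshold (0.60, adjusted p = 0.0531). It was called without knockout replicate 3 (0.80, adjusted p = 0.0193).

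Epsti1 and Ifi35 were the 2 of 6 remaining interferon-stimulated genes that rose (10.4% of all genes were higher). Epsti1 (chr14:77904239-78002657), an interferon-induced gene of macrophages and epithelium, had 1119, 1100, 1205 and 1274 normalized counts in controls and 2316, 1733 and 1541 in knockouts. The groups did not overlap, and the mean was 1175 ± 80.6 (SD, n = 4) against 1863 ± 404 (SD, n = 3). Its log2 fold change was 0.65 (SE 0.13, adjusted p = 0.0102, 1.56-fold), and it was the one member called in each of the 7 fits with a library left out (adjusted p up to 0.0335). Ifi35 (chr11:101448407-101458698), a partner of the interferon-induced protein NMI, had 474.3, 443.3, 378.8 and 456.4 against 703.7, 582.7 and 528.5, with no overlap (0.46, SE 0.12, adjusted p = 0.0244, 1.37-fold). It was called without control replicate 1, control replicate 3 or knockout replicate 3, and not in the other 4 such fits (adjusted p up to 0.0625). Trim30a, a brake on inflammatory signalling, had 0.20 (adjusted p = 0.268), and Xaf1, which promotes cell death, had 0.27 (adjusted p = 0.256). Ifi27l2a had 0.22 (adjusted p = 0.453) and Ifi44 had 0.06 (adjusted p = 0.837).

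Neither the PYHIN proteins, which bind DNA, nor the ADP-ribosylation proteins had a called member. Ifi204 had 3997 to 4309 normalized counts in controls and 7199, 4567 and 4183 in knockouts (log2 fold change 0.33, adjusted p = 0.187), so that 2 of 3 knockouts lay above the controls. Mndal had 1766 to 2069 against 2095, 2409 and 2302, with no overlap (0.22, adjusted p = 0.08), and unlike Ifi204 its lowest knockout was replicate 1. Without that library Mndal was called (0.28, adjusted p = 0.0469). Parp9 and its partner Dtx3l had 0.13 (adjusted p = 0.219) and 0.19 (adjusted p = 0.164). Their exons overlap in part on opposite strands, and reads from the shared bases cannot be told apart without a strand setting. Parp14 had 0.03 (adjusted p = 0.892). Dhx58, Usp18, Ifi35, Eif2ak2 and Oasl1 also share some exonic bases with genes on the other strand, and reads from those bases carry the same uncertainty. In each of these genes, as in Parp9 and Dtx3l, most exonic bases lie outside such overlaps.

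**Figure D2:**
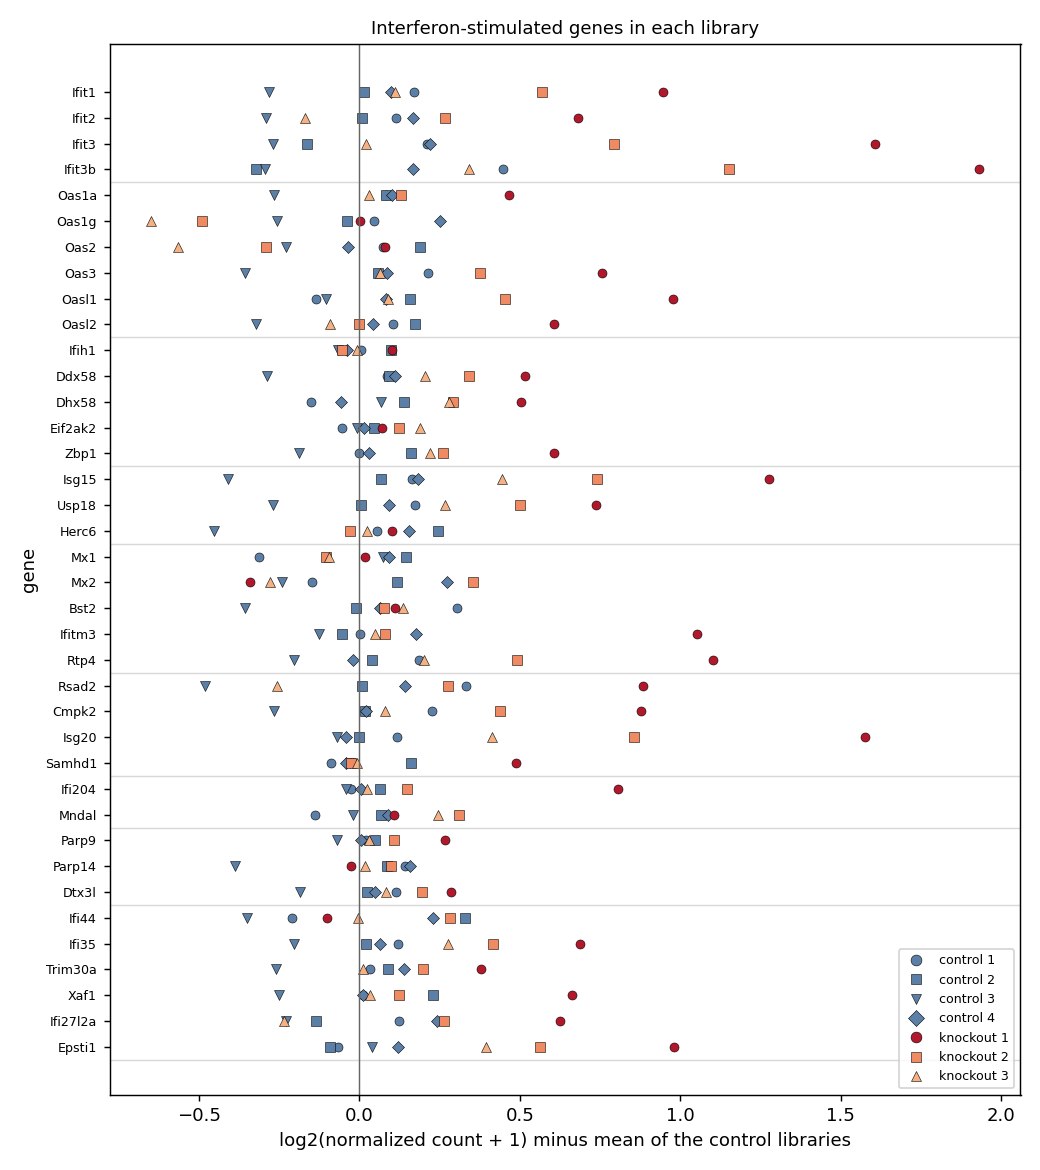
Level of each of the 38 genes in every library, as log2(normalized count + 1) minus the mean of the 4 controls, in blocks by role; blue symbols are controls and red to orange symbols are knockouts. Knockout replicate 1 lies farthest right for 28 of 38 genes, and control replicate 3 farthest left for 26.

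Per kilobase of exon, the members spanned a wide range of levels. Ifitm3 was the highest at 3887 normalized counts per kilobase in controls and 5380 in knockouts. Samhd1 (1640 and 1844), Isg15 (1451 and 2606) and Bst2 (1260 and 1340) followed in controls. The lowest were Mx2 (25.2 and 24.0) and Ifi44 (43.8 and 45.0). On this scale Isg15 stood above Samhd1 in knockouts and below it in controls.

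The members did not move alike in the 3 knockout libraries. Knockout replicate 1 was the highest of all 7 libraries in 28 of 38 members, against 23.5% of all genes, and knockout replicates 1, 2 and 3 stood in that descending order in 28 of 38, against 20.1% of all genes. Measured as the median over members of the log2 level minus the control mean, the libraries stood at 0.61, 0.26 and 0.04 in knockout replicates 1 to 3 and at 0.08, 0.06, -0.25 and 0.09 in control replicates 1 to 4. Knockout replicate 3 thus lay between control replicate 3 and the other controls, and control replicate 3 was the lowest control in 30 of 38 members (29.4% of all genes). Knockout replicate 1 exceeded all controls in 30 members, replicate 2 in 25 and replicate 3 in 11 (35.1%, 33.0% and 29.2% of all genes).

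Other cell types' markers also differed between these libraries, and their part in the result was not tested. The summed neutrophil markers given above were highest in knockout replicate 1, at 81289 against 27050 and 27457 in the other knockouts. Erythroid markers were at 1254 to 26210 in controls and at 136707, 10593 and 6936 in knockouts, with 0 of 7 called. Both sums were thus highest in the library with the highest interferon-stimulated genes, and so were the B cell and epithelial sums given below. Natural killer cell markers were at 11170 to 18639 in controls and at 53416, 54786 and 60100 in knockouts, with 12 of 12 higher, and their highest library was knockout replicate 3. Monocyte and recruited macrophage markers were at 34112 to 45754 in controls and 24556 to 32746 in knockouts, with 7 of 11 lower and 2 higher. Plasmacytoid dendritic cells are a main source of type I interferon. Their markers were at 664.4 to 848.9 against 807.6 to 879.0, with 0 of 6 called. T cell markers were at 7738 to 9298 against 9581 to 12379, with 3 of 10 higher. B cell markers were at 392.9 to 549.2 in controls and 833.5, 660.5 and 533.0 in knockout replicates 1 to 3, with 1 of 3 higher. Epithelial markers were at 475.2 to 570.8 in controls and 1287, 1009 and 851.0 in knockout replicates 1 to 3, with 6 of 9 higher. The B cell and epithelial sums thus fell from knockout replicate 1 to 3, in the order most members had.

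**Figure D3:**
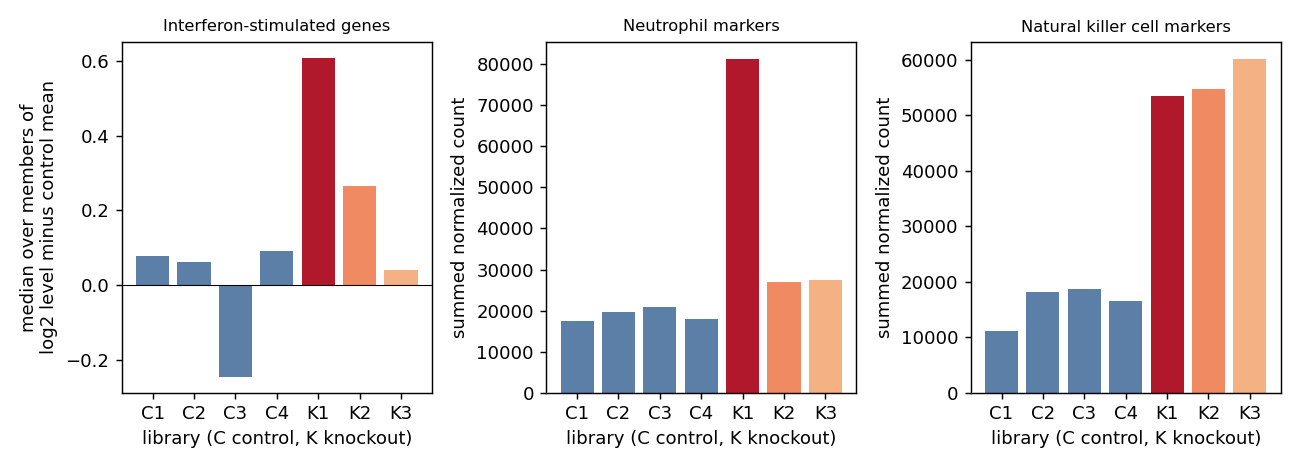
Left, median over the 38 genes of the log2 level minus the control mean in each library; middle and right, summed normalized counts of 15 neutrophil and 12 natural killer cell markers. Knockout replicate 1 is highest for the first 2 quantities (0.61 and 81289), while the natural killer sum is between 53416 and 60100 in all 3 knockouts.

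The count of called members moved with these libraries. Without knockout replicate 1, 4 members rose (Epsti1, Isg15, Isg20 and Mndal) and 2 fell (Oas1g and Oas2), against 9.05% and 9.57% of all genes, and the median log2 fold change was 0.12. Without control replicates 1, 2, 3 and 4 in turn, 6, 3, 5 and 2 members rose (8.88%, 6.89%, 8.5% and 6.9% of all genes), and without knockout replicate 2 there were 2 (5.35%). Without knockout replicate 3, 12 rose and 0 fell (7.93% of all genes higher), with a median of 0.41. With a neutrophil marker score as a covariate, 0 members were called in limma (4.62% of all genes higher, 4.16% lower), 4 had an unadjusted p under 0.05, and the median was 0.06 with 24 of 38 above 0. The score, a mean log2 level, was 8.6 to 8.84 in controls and 11.0, 9.36 and 9.33 in knockout replicates 1, 2 and 3. It did not overlap between the groups, so no value given with this covariate can separate neutrophil content from genotype. The log2 fold changes of the 7 genes were all smaller in that fit, at 0.36 for Ifit3b, 0.29 for Isg20, 0.39 for Isg15, 0.29 for Epsti1, 0.29 for Usp18, 0.24 for Ifi35 and 0.18 for Dhx58 (adjusted p from 0.169 to 0.626). Without control replicates 1 and 4, which held high Lyz2, 0 members were called (4.8% of all genes higher, 4.45% lower), 15 had an unadjusted p under 0.05, and the median was 0.31. In that fit of 2 controls against 3 knockouts the log2 fold changes of the 7 genes were 1.45 for Ifit3b, 0.99 for Isg20, 0.99 for Isg15, 0.67 for Epsti1, 0.63 for Usp18, 0.55 for Ifi35 and 0.25 for Dhx58. Of these, 6 were larger than with all controls and that of Dhx58 was smaller, with adjusted p between 0.0535 (Usp18) and 0.153 (Dhx58). Control replicate 3, the lowest control in 30 of 38 members, was 1 of the 2 controls in that fit. Without control replicates 2 and 3 instead, Dhx58 alone was called (4.74% of all genes higher) and the median was 0.23. Scaling by library size gave 11 higher members (11.3% of all genes) and DESeq2 on the recovered reads 12 (10.9%). With the replicate number of the titles as a block 5 members were higher (3.27%), and with that of the descriptions 1 was (4.56%).

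The receptor and the machinery that relays it were examined in a list of 32 pathway genes. Of the 24 tested, 5 rose (Tyk2, Irf9, Tmem173, Socs1 and Ptpn2) and 3 fell (Ifnar1, Ifnar2 and Tlr3), where 10.4% of all genes were higher and 11.3% lower, with a median log2 fold change of 0.12. The 8 interferon genes of the list were not among the 16476 genes with values, so they could not be analysed here. Both receptor chains fell. Ifnar1 was at 3444, 3812, 3405 and 3752 normalized counts in controls and at 2971, 2583 and 2972 in knockouts (log2 fold change -0.34, SE 0.08, adjusted p = 0.0169). Ifnar2 was at 1491, 1416, 1315 and 1540 against 1221, 1013 and 1184 (-0.34, SE 0.09, adjusted p = 0.0257). In both genes every knockout lay below every control and replicate 2 was the lowest. Ifnar1 was not called without control replicate 2, control replicate 4 or knockout replicate 2 (adjusted p up to 0.0679), nor was Ifnar2 without any of these or control replicate 1 (up to 0.0918). Tyk2, a kinase bound to IFNAR1, rose by 0.31 (SE 0.08, adjusted p = 0.023), with no call without control replicate 1, control replicate 2 or knockout replicate 2 (up to 0.0868). Jak1 had 0.19 (adjusted p = 0.109).

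Of the transcription factors, Irf9, a DNA-binding subunit of the interferon-activated complex, rose. It had normalized counts of 1452, 1376, 1224 and 1315 in controls and 2070, 1661 and 1509 in knockouts, with no overlap (log2 fold change 0.37, SE 0.11, adjusted p = 0.0438), but among the fits with 1 library left out it was called only without knockout replicate 3 (adjusted p from 0.0254 to 0.0985). Stat2, its partner, had 0.17 (adjusted p = 0.266). Irf7, which amplifies interferon production, had 3242, 3557, 2832 and 3466 against 5422, 3356 and 3035 (0.22, adjusted p = 0.413), and only knockout replicate 1 lay above the controls. Tmem173 (STING, the adaptor of DNA sensing) had 1158, 1009, 916.0 and 1107 against 1458, 1700 and 1415, with no overlap (0.54, SE 0.10, adjusted p = 0.00741). Its highest knockout was replicate 2, and it was called in all 7 fits with a library left out. Tlr3, an endosomal receptor for double-stranded RNA, had 165.5 to 183.8 in controls and 135.9, 129.8 and 113.8 in knockouts (-0.44, SE 0.10, adjusted p = 0.0175), and was not called without knockout replicate 2 or knockout replicate 3 (up to 0.0557).

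Of 6 feedback inhibitors 2 rose, Socs1 and Ptpn2, while 10.4% of all genes were higher. Socs1, an inhibitor of the JAK kinases that responds to both type I and gamma interferon, had 959.8, 885.5, 710.6 and 786.2 normalized counts in controls and 1464, 1499 and 1427 in knockouts. The 3 knockouts lay close together and above every control. The mean was 835.5 ± 110 (SD, n = 4) against 1463 ± 35.8 (SD, n = 3), and the log2 fold change was 0.82 (SE 0.10, adjusted p = 0.00153, 1.76-fold). Socs1 stayed past the threshold under all 22 alternatives, with adjusted p up to 0.0228, and without control replicates 1 and 4 it was 0.88 (adjusted p = 0.0101). Ptpn2, a phosphatase that acts on JAK1, had 808.0 to 914.9 against 1066 to 1101 (0.33, SE 0.06, adjusted p = 0.00926) and was called in all 7 fits with a library left out. Without control replicates 1 and 4, of the 8 called pathway genes Socs1 and Tmem173 (0.66, adjusted p = 0.0197) were past the threshold, and Ifnar1 stood at -0.35 (adjusted p = 0.0846), Ifnar2 at -0.26 (0.16), Tyk2 at 0.34 (0.0564), Irf9 at 0.42 (0.116), Tlr3 at -0.41 (0.102) and Ptpn2 at 0.34 (0.0613). With the neutrophil covariate Socs1 (0.84, adjusted p = 0.0173) and Tmem173 (0.63, adjusted p = 0.0363) were called and the other 6 were not. Irf9 stood at 0.11 there (adjusted p = 0.632), Ifnar1 at -0.41 (0.0661), Ifnar2 at -0.43 (0.0755), Tlr3 at -0.55 (0.0629), Tyk2 at 0.32 (0.136) and Ptpn2 at 0.32 (0.0824).

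**Figure D4:**
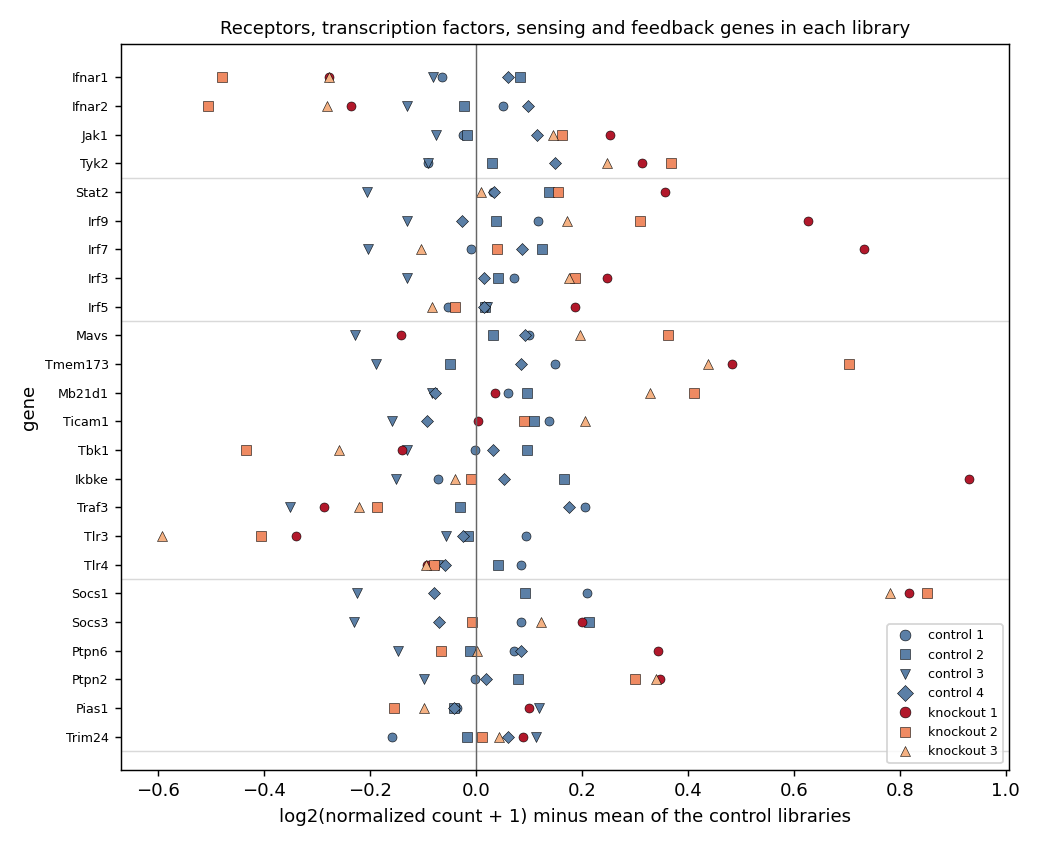
Level of each of the 24 tested pathway genes in every library, as log2(normalized count + 1) minus the mean of the 4 controls, with the symbols of the plot of the 38 genes. The 3 knockouts of Socs1 lie close together to the right of all controls, and those of Ifnar1, Ifnar2 and Tlr3 lie to the left of all controls.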

How the data were processed

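The 7 libraries were grouped by their titles into 4 controls and 3 knockouts. The 38 members and all gene lists were chosen with earlier results of these data known. The submitters' processing notes name cutadapt 1.15, STAR 2.5.3a, HTSeq, DESeq2 and the build GRCm38 (mm10). The annotation, the strand setting and the versions of the last pair of tools were not given in the sources used here. In the deposited table each of 16476 genes has a signal value for every library, a normalized count that the authors obtained by dividing reads by a size factor. The authors' own comparison fills further columns, which per the file headers are a log2 fold change with its error, a statistic (here called a score), the p-value, and that p-value after adjustment (missing for 650 genes). Dividing by the library's step gave whole reads within 0.01 for 100% of values, and the count alternatives used these.

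limma 3.58.1 in R 4.3.3 (eBayes with trend) was run on log2(normalized count + 1) for the 12963 genes averaging at least 10, with Benjamini-Hochberg adjustment over them and a threshold of 0.05. Fold changes on this scale are understated for low genes. All members are named, and of the pathway and induced gene lists those past the threshold, with Stat2, Irf7, Irf9 and the receptor chains whatever their values. One pathway gene is not reported here, and the counts of that list leave it out. Other genes named without a call (Jak1 and Ube2l6) and the promoters shown were chosen after their values were seen. Replicate libraries were no copies of each other (chi-square per gene 8.63 to 35.5). The 22 alternatives were 3 scalings, 2 pseudocounts, 2 filters, edgeR 4.0.16, DESeq2 1.42.0, limma-voom, 2 replicate blocks, a neutrophil covariate, each library left out, and control replicates 1 and 4 or 2 and 3 left out. Gene positions and lengths are from GENCODE M21 (GRCm38), which held 99.81% of the identifiers.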

Additional observations from a re-analysis of the deposited data

Results flagged for a closer look

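In 3 members 1 control library lay far from the other 3, measured as the gap to its nearest neighbour over the whole range of the 4 controls. The share was 0.94 for Oas1a, 0.924 for Ddx58 and 0.847 for Parp14, and in each the far library was control replicate 3, the lowest. Oas1a was at 801.8 normalized counts there and between 1022 and 1036 in the other controls, Ddx58 at 1588 against 2057 to 2095, and Parp14 at 6429 against 8935 to 9387. Of 58 groups tested 3 passed the limit, and chance passes about 1 in 20.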

How the results depend on the processing

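Against 7 members higher and 0 lower, 11 were higher with library-size scaling, 12 with DESeq2, 0 with the neutrophil covariate, 0 without control replicates 1 and 4 and 1 without control replicates 2 and 3. Leaving out 1 library at a time gave 2 to 12 higher and 0 to 2 lower members, and median log2 fold changes of 0.12 to 0.41. Deviations of same-numbered libraries had correlations of -0.23, -0.03 and -0.19 for the numbers in titles, and -0.08, -0.29 and 0.08 for those in descriptions. The labels do not say what the numbers mark, and these correlations cannot settle whether same-numbered libraries belong together. With the title number as a replicate block 5 members were higher and with the description number 1 (Isg20). Of 836 log2 fold changes of members under 22 alternatives, 34 changed sign, none of them of the 7 called members, and the cause was not tested. With the neutrophil covariate these were Ifit2 (-0.15), Oas1a (-0.034), Oasl2 (-0.26), Ifih1 (-0.080), Mx2 (0.20), Ifitm3 (-0.28), Rsad2 (-0.26), Samhd1 (-0.21), Ifi204 (-0.18), Parp9 (-0.00024), Xaf1 (-0.13) and Ifi27l2a (-0.18), beside Stat2 (-0.0032) and Irf7 (-0.30). Without control replicates 1 and 4 it was Ifih1 (-0.0035). Without control replicates 2 and 3 these were Herc6 (-0.071), Mx1 (0.049), Bst2 (-0.076) and Parp14 (-0.12). With the replicate block by title Mx2 was 0.0015, and with that by description Ifi44 was -0.011. With 1 library left out, signs changed for Ifi44 (-0.058 to 0.17), Ifih1 (-0.032 to 0.047), Herc6 (-0.12 to 0.11), Bst2 (-0.011 to 0.21), Parp14 (-0.099 to 0.083), Mx2 (-0.31 to 0.036), Oasl2 (-0.046 to 0.30), Samhd1 (-0.016 to 0.24) and Irf7 (-0.031 to 0.39). The knockout group of 3 libraries, 1 of which stands apart, limits every count.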

Other observations

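A list of 49 further induced genes and paralogs had 47 tested members, of which 8 rose and 2 fell, with a median log2 fold change of 0.14. Over all genes tested 21.7% were called, so the number called in the list is close to the background and only single genes are described. Oas1h and Apol9a were below the minimum level. The largest difference was in Ifitm6, a relative of Ifitm3 known from myeloid cells. Its normalized counts were 68.0, 70.5, 69.9 and 67.7 in controls and 606.4, 399.0 and 262.9 in knockouts (log2 fold change 2.51, SE 0.24, limma adjusted p = 0.000652). All knockouts lay far above the closely spaced controls, Ifitm6 was called under all 22 alternatives, and with the neutrophil covariate its log2 fold change was 1.86 (adjusted p = 0.00445). Ifitm1, another relative, had 766.8, 683.0, 626.6 and 833.9 against 2359, 1298 and 1106 (1.05, SE 0.23, adjusted p = 0.0145), but 0.40 with the neutrophil covariate (adjusted p = 0.257). The part of neutrophils in either value was not tested. Ifitm3 itself, described above, was not called, and the differences between these relatives were not tested.

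Of the other induced genes, Pml, the organiser of nuclear bodies, rose by 0.38 (adjusted p = 0.00857) and was called in all 7 fits with 1 library left out. Its partner Daxx (0.36, adjusted p = 0.0263), Trim34a (0.36, adjusted p = 0.0146), the antibody receptor Trim21 (0.38, adjusted p = 0.0291), Phf11b (0.42, adjusted p = 0.0381) and Sp110 (0.28, adjusted p = 0.0397) also rose. Sp110 was called in 0 of those 7 fits (adjusted p from 0.0516 to 0.0904), Daxx in 2 (0.0132 to 0.087), Phf11b in 2 (0.0475 to 0.0909), Trim21 in 3 (0.031 to 0.0864) and Trim34a in all but that without knockout replicate 2 (0.0559). Ifi30, a lysosomal reductase that prepares antigens for MHC class II, fell, from 5535, 4905, 5375 and 5010 normalized counts in controls to 4088, 3537 and 3732 in knockouts (-0.46, SE 0.08, adjusted p = 0.00519). Rnf213, a large ubiquitin ligase, fell by 0.41 on the log2 scale (adjusted p = 0.0345) and was called in 1 of the 7 fits (adjusted p from 0.0139 to 0.0898). With the neutrophil covariate Ifi30 was called (-0.58, adjusted p = 0.015), as was Ifitm6. The others were not, with Pml at 0.30 (adjusted p = 0.121), Trim34a at 0.29 (0.164), Trim21 at 0.31 (0.253), Daxx at 0.21 (0.34), Phf11b at 0.17 (0.53), Sp110 at 0.11 (0.526) and Rnf213 at -0.31 (0.295). Ube2l6, the enzyme that hands ISG15 on to its ligase, was at 1522, 1366, 1328 and 1295 in controls and at 4347, 1686 and 1544 in knockouts (0.71, SE 0.31, adjusted p = 0.134). Its groups did not overlap, and knockout replicate 1 stood far above the other libraries.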
